A study of Mus musculus with 24 samples.

Results

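The genes described here make, bind and oxidise retinoids, the family of molecules derived from vitamin A. They are the retinol dehydrogenase genes Rdh9, Rdh16, Rdh10 and Dhrs9, the retinal reductase gene Dhrs3, the retinal dehydrogenase genes Aldh1a1, Aldh1a2 and Aldh1a3, and the retinoid-binding protein gene Rbp2. These 9 genes, of 55487 listed, were chosen by name because Rdh9 was higher in the knockout colon than in the wild-type colon at day 13. That contrast is therefore given as a description, with no test, for each of them.

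RNA was sequenced from colon and colorectal tumours of C57BL/6 mice. KO mice lacked Axin1, a scaffold protein of the beta-catenin destruction complex in Wnt signalling, in intestinal epithelial cells only, and WT mice were wild type. Colon came from mice treated with dextran sulfate sodium (DSS, a polymer that injures the colonic epithelium) and killed at day 7 or day 13, and from untreated mice. Tumours came from mice given the carcinogen azoxymethane with DSS (AOM/DSS). Each of the 8 groups (KO and WT at day 7, at day 13, as tumours and untreated) held 3 libraries. The libraries are whole tissue, so fewer cells of a type and less RNA per cell cannot be told apart, and cells other than the epithelium kept Axin1. Which exons were deleted, and which Cre line was used, is not given by the labels. Nor do the labels say that each library came from its own animal, so p-values measure only the spread between these libraries.

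Vitamin A reaches cells as retinol. Retinol dehydrogenases oxidise it to retinal in a reversible step, retinal reductases run that step backwards, and retinal dehydrogenases oxidise retinal irreversibly to retinoic acid, the ligand of nuclear receptors. In the intestine retinoic acid is known for guiding epithelial differentiation and for setting the homing and tolerance of immune cells.

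Libraries held between 15.65 M and 28.07 M expected counts in all (M for mega, median 23.6 M), and all 9 genes passed the filter on low counts in each comparison. Levels are CPM (counts scaled to library size), and differences are log2 fold changes ± SE from edgeR's quasi-likelihood test with Benjamini-Hochberg adjusted p-values over all genes. Axin1 in KO libraries was 33.2% of the WT mean in untreated colon, 31.6% at day 7, 29.0% at day 13 and 33.0% in tumours, with no overlap of libraries. Several libraries stood apart in marker genes of other tissues. KO untreated replicate 3 held 45.8 CPM of 3 distal hindgut Hox genes summed, against 420.5 to 908 CPM in the other 5 untreated libraries. Its sum of 8 small intestinal absorptive genes was 889.2 CPM, against 12.3 to 91.2 CPM in those 5. Most of that sum was Fabp2 (748.9 CPM) and Alpi (119.3 CPM), and Sis and Gata4 were also highest there. Other genes of the list did not go that way. Apoa1 and Lct were lower there than in those 5, Apoa4 was below KO untreated replicate 1, and Mttp lay within their range. The colon epithelium gene Car1 was highest there, at 12060 CPM. WT tumour replicate 1 held 77.5 CPM of the Hox genes, below the 289.1 to 489.3 CPM of the other 5 tumours. Hoxb13 (15.1 CPM) and Hoxd13 (0.039 CPM) were low there, while Hoxa13 (62.3 CPM) was higher than in any other tumour. WT day 7 replicate 1 held 227.9 CPM of the Hox genes, against 292.7 to 645.2 CPM in the other day 7 libraries. There Hoxd13 was at 6.32 CPM, while Hoxa13 and Hoxb13 (62.35 and 159.3 CPM) were near WT day 7 replicate 2 (62.87 and 157.3 CPM). Its small intestinal sum was 145.1 CPM, against 8.51 to 65 CPM in the others. KO day 13 replicate 1 and WT day 13 replicate 3 carried 1174 and 5153 CPM of 6 squamous epithelium genes, while the other 4 day 13 libraries had 1.60 to 6.999 CPM. Of the same genes, KO tumour replicate 2 carried 645 CPM and the other 5 tumours 19.98 to 124.2 CPM. Untreated colon had at most 2.21 CPM. Ddx3y, on the Y chromosome, exceeded 5 CPM in 1 KO and 0 WT libraries at day 7, in 0 KO and 3 WT libraries at day 13, in 2 KO and 2 WT tumours, and in 3 KO and 2 WT untreated libraries. Sex and genotype cannot be told apart at day 13. In KO colon, sex also cannot be told apart from the change between untreated and day 13, for any gene below.

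**Figure D1:**
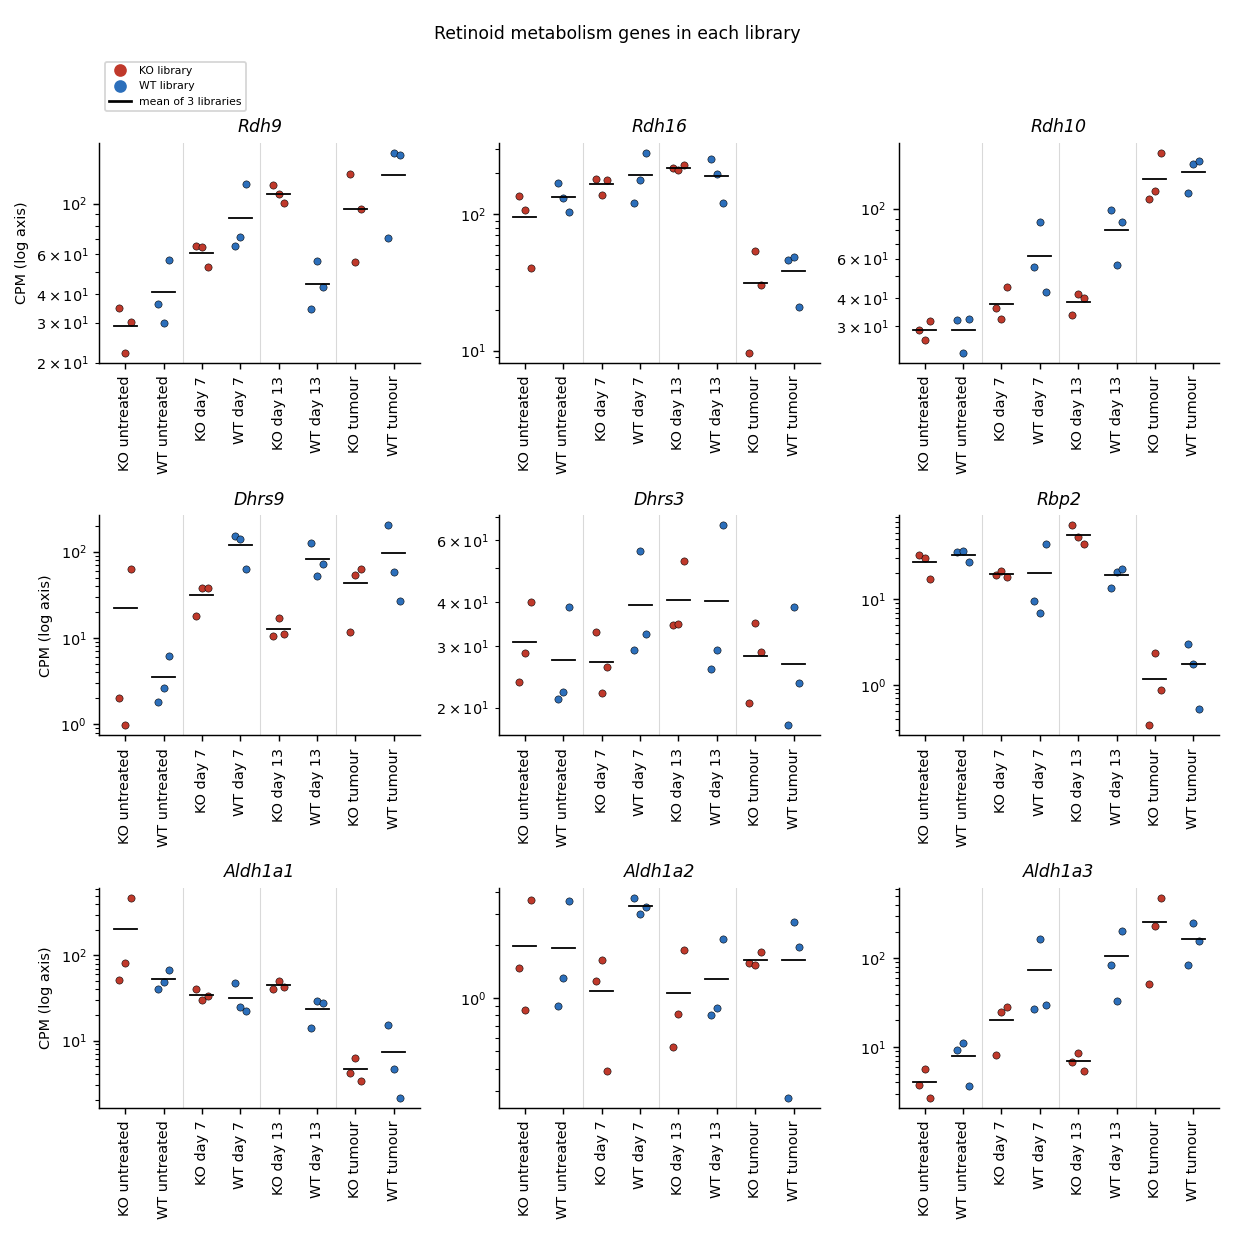
Level of each retinoid gene in each of the 24 libraries (points, CPM on a log axis) and the mean of the 3 libraries of a group (bars), with KO left of WT in each condition. By group mean Rbp2 and Aldh1a1 are lowest in tumours, and Aldh1a3 and Rdh10 highest there, and 1 KO untreated library lies far above the other 2 for Aldh1a1 and Dhrs9.

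Rdh9 (ENSMUSG00000056148) belongs to a family of closely related short-chain dehydrogenases that oxidise retinol, and lies on the plus strand at chr10:127776386-127792697 in GRCm38. At day 13 its level was 121, 110 and 101 CPM in KO colon, against 34.3, 55.7 and 43.0 CPM in WT colon. Every KO library lay above every WT library by this choice of gene, and the difference was 1.33 ± 0.28. In untreated colon it held 34.9, 22.0 and 30.1 CPM in KO and 36.2, 29.8 and 56.6 CPM in WT, groups that overlapped and differed by -0.52 ± 0.27 (adjusted p = 0.781).

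From untreated colon to day 7 Rdh9 rose in both genotypes. KO colon at day 7 held 65.2, 64.5 and 52.5 CPM, above each untreated KO library (1.07 ± 0.28, adjusted p = 0.0204). WT colon at day 7 held 65.2, 71.7 and 121.9 CPM, above each untreated WT library (1.02 ± 0.28, adjusted p = 0.0222). The 2 changes differed by 0.05 ± 0.39 (adjusted p = 0.971). At day 13 the mean was 110.7 ± 10.01 CPM in KO, against 29.0 ± 6.50 CPM untreated, and 44.3 ± 10.8 CPM in WT, against 40.9 ± 14 CPM untreated (SD, n = 3 each). Thus the KO libraries at day 13 lay above all 3 untreated KO libraries, while the WT libraries at day 13 overlapped with the untreated WT libraries. With a covariate for Y-linked expression the day 7 change was 0.88 (adjusted p = 0.118) in KO and 0.85 (adjusted p = 0.135) in WT, and neither passed. The KO call was also lost without KO untreated replicate 2, KO day 7 replicate 1 or KO day 7 replicate 2 (0.90 to 1.03), and the WT call without WT day 7 replicate 3, WT untreated replicate 1 or WT untreated replicate 2 (0.67 to 0.94).

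Tumours held 135.4, 55.5 and 94.5 CPM of Rdh9 in KO and 70.8, 167.1 and 163.4 CPM in WT. Both groups lay wholly above untreated colon of their genotype, by 1.71 ± 0.35 in KO (adjusted p = 0.000621) and 1.71 ± 0.35 in WT (adjusted p = 0.000608). Such a lack of overlap was common, as 59.1% of all genes in KO and 60.1% in WT had it in this comparison. KO and WT tumours overlapped and differed by -0.48 ± 0.44 (adjusted p = 0.942). Ordered by mean, the groups ran from WT tumours through KO day 13, KO tumours, WT day 7, KO day 7, WT day 13 and WT untreated to KO untreated, and each neighbouring pair in that order overlapped.

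The counts of Rdh9 are partly estimates, because the gene shares sequence with its neighbours. Rdh16f1 is annotated from chr10:127759787 to 127792694, where it joins the start of Rdh1 to the last exons of Rdh9, and 2302 of the 3590 exon bases of Rdh9 (64.1%) lie inside its exons. The coding sequence of Rdh9 (951 bases) was 98.7% identical to that of Rdh16f1, 96.3% to that of Rdh16 and 92.1% to that of Rdh1. In each of the 24 libraries the expected count of Rdh9 was not whole. Of the counts given to Rdh9, Rdh16f1 and Rdh1 together, Rdh9 took 50.1% to 74.7% in KO tumours and 79.6% to 85.2% in WT tumours. In the colon libraries it took 91.3% or more, apart from KO untreated replicate 3 with 79.3%. With the counts of Rdh16f1 added to Rdh9, the rise was 1.04 in KO and 1.04 in WT at day 7, and 1.99 in KO and 1.84 in WT tumours, and each still passed.

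The neighbours Rdh1 and Rdh16f1 were low in untreated colon and were detected in every tumour. Rdh1, also a retinol dehydrogenase, held 39.9, 26.4 and 15.9 CPM in KO tumours, against 0.526, 0.524 and 3.85 CPM in untreated KO colon (4.07 ± 0.65, adjusted p = 7.17e-05). In WT it held 8.43, 19.3 and 22.0 CPM in tumours, against 0.347, 0.435 and 0.978 CPM in untreated colon (4.82 ± 0.70, adjusted p = 2.39e-05). Rdh16f1 was at 16.2 to 31.8 CPM in KO tumours and 3.86 to 19.9 CPM in WT tumours, while 4 of the 6 untreated libraries had no count of it. Of its 2766 exon bases, 2302 lie in exons of Rdh9 and the other 464 in exons of Rdh1. It has no exon base of its own, so its level is not separate from theirs.

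**Figure D2:**
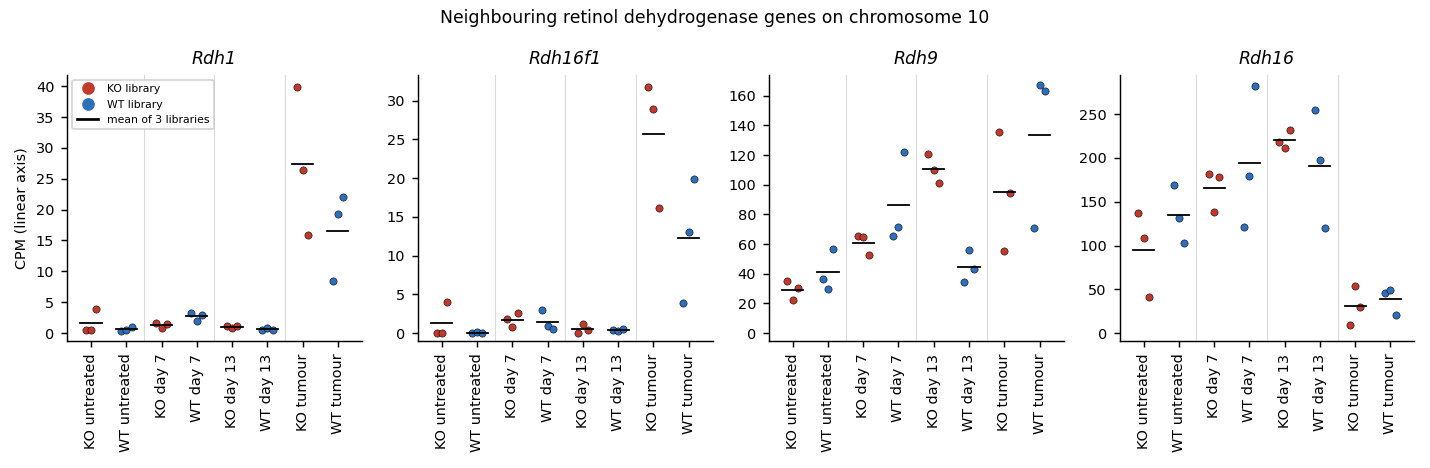
Levels (CPM, linear axis) of 4 neighbouring retinol dehydrogenase genes on chromosome 10 in each library (points) with the mean of each group of 3 (bars), KO left of WT. Rdh1 is at most 3.85 CPM in colon and 8.43 to 39.9 CPM in tumours, Rdh16f1 is at most 4.01 CPM in colon and 3.86 to 31.8 CPM in tumours, and the tumour means of Rdh9 are above, and those of Rdh16 below, the untreated means of the same genotype.

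Rdh16 (ENSMUSG00000069456), further along the same strand at chr10:127801152-127846565, went the other way in tumours. KO tumours held 9.60, 53.6 and 30.1 CPM, against 136.9, 108.2 and 40.7 CPM in untreated KO colon. WT tumours held 45.9, 48.6 and 21.1 CPM, against 168.8, 131.8 and 103.1 CPM in untreated WT colon. The WT groups did not overlap, and the KO groups overlapped through KO untreated replicate 3. The fall was 1.62 ± 0.51 on the log2 scale in KO (adjusted p = 0.0127) and 1.80 ± 0.51 in WT (adjusted p = 0.00659). The KO call did not hold without KO tumour replicate 1 (-1.19, adjusted p = 0.0541) or without KO untreated replicate 1 (-1.26, adjusted p = 0.0666). It was also lost with only the groups compared in the fit (-1.69, adjusted p = 0.0964) and without 4 libraries with repeated sample numbers (-1.51, adjusted p = 0.0560), and held in 11 of 15 alternatives. At day 7 Rdh16 averaged 166.1 ± 24.1 CPM in KO and 194.1 ± 81.4 CPM in WT (SD, n = 3 each), and its change from untreated passed in neither genotype. At day 13 it held 217.7, 211 and 231.4 CPM in KO, all above the untreated KO libraries (1.21 ± 0.39, adjusted p = 0.471), and 255.3, 197.7 and 120.5 CPM in WT, which overlapped with the untreated WT libraries (0.48, adjusted p = 0.499).

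The stretches before the start of Rdh9 and of Rdh16 are shown because these genes, alike in their coding sequence, moved in opposite directions in tumours. Each is 250 bases long on the plus strand of GRCm38.p6, from RefSeq, at chr10:127776155-127776404 for Rdh9 and chr10:127800903-127801152 for Rdh16. The Rdh9 stretch ends inside the gene as annotated in GENCODE, which starts at chr10:127776386. The Rdh16 stretch ends on the first base of the gene in GENCODE. Motif positions count from the RefSeq start. Capitals mark matches on either strand to AGGTCA (a nuclear receptor half-site), to the AP-1 motif (TGA, any base, then TCA on the same strand), to TATAAA, which is a core promoter element, and to CTTTGAT, bound by TCF/LEF factors.
Rdh9: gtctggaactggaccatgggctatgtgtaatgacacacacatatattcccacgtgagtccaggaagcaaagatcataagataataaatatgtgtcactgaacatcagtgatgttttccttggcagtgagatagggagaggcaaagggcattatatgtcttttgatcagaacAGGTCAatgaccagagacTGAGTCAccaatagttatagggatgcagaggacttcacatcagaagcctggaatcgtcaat
Rdh16: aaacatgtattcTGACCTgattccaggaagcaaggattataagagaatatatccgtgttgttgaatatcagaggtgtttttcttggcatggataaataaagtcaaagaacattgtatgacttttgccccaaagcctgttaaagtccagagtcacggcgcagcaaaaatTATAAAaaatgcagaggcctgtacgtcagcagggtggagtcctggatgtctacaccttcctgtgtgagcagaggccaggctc
Aligned with each other, the pair matched at 71.2% of 212 aligned bases. Rdh9 holds AGGTCA at -79 and the AP-1 motif at -61, counted from the base before the start as -1, and Rdh16 holds AGGTCA on the minus strand at -238 and TATAAA at -82. No match to CTTTGAT lies in either stretch, and none of the marked matches overlap. Over 32851 RefSeq stretches of this length, AGGTCA occurred in 14%, the AP-1 motif in 6.75%, TATAAA in 12.4% and CTTTGAT in 3.21%. Also searched, without capitals, were CACGTG (an E-box, in 6.02%), which occurs in Rdh9 at -201, and CAAAGTCCA (HNF4, in 0.384%), which occurs in neither. RefSeq stretches matched 7 of the 9 genes, and none was printed for Rdh10 and Aldh1a3.

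Rdh10 (ENSMUSG00000025921, chr1:16105774-16133734, plus strand) encodes a retinol dehydrogenase that limits retinoic acid synthesis in the mouse embryo. KO colon held 36.2, 32.4 and 45.1 CPM at day 7 and 33.8, 41.9 and 40.2 CPM at day 13, against 29.0, 26.2 and 31.6 CPM untreated. The treated KO libraries lay above the untreated ones, but the differences of 0.40 ± 0.24 at day 7 (adjusted p = 0.321) and 0.43 ± 0.24 at day 13 (adjusted p = 0.736) did not pass. WT colon held 55.0, 87.0 and 42.8 CPM at day 7 and 98.2, 56.3 and 87.4 CPM at day 13, against 32.0, 22.9 and 32.2 CPM untreated. Both treated WT groups lay above the untreated one and rose by 1.03 ± 0.24 at day 7 (adjusted p = 0.0121) and 1.45 ± 0.25 at day 13 (adjusted p = 0.00855). The WT day 7 call was lost without WT day 7 replicate 2 (0.70) or WT untreated replicate 2 (0.87), and the day 13 call without WT untreated replicate 1 (1.52) or WT untreated replicate 2 (1.299). The KO and WT changes at day 7 differed by -0.63 ± 0.34, which did not pass (adjusted p = 0.416). At day 13 the 3 KO libraries lay below the 3 WT libraries, with a difference of -1.05 ± 0.24.

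In tumours Rdh10 reached 110.5, 119.3 and 176.7 CPM in KO and 117.7, 158.2 and 162.2 CPM in WT. These 6 values lay above all colon libraries, and the rise from untreated was 2.23 ± 0.26 in KO (adjusted p = 3.42e-06) and 2.33 ± 0.26 in WT (adjusted p = 2.01e-06). Rdh10 shares no stretch of 50 bases with another annotated gene.

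Dhrs9 (ENSMUSG00000027068, chr2:69380445-69404533, plus strand) encodes a short-chain dehydrogenase that acts on retinol, known mainly from human epithelia. In KO mice its comparisons turned on a single library. KO colon at day 7 held 18.2, 37.6 and 37.9 CPM and KO tumours 11.7, 54.1 and 63.3 CPM, while untreated KO colon held 2.02, 0.973 and 63.1 CPM. The last value is replicate 3, the library with few distal hindgut Hox transcripts. With it the changes were 0.52 ± 0.97 at day 7 (adjusted p = 0.789) and 0.97 ± 1.02 in tumours (adjusted p = 0.449). Without it they were 4.39 ± 0.65 at day 7 (adjusted p = 0.000954) and 4.85 ± 0.96 in tumours (adjusted p = 0.000627), and both passed.

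In WT mice Dhrs9 rose in each condition. WT colon held 150.9, 139.2 and 63.3 CPM at day 7 (4.99 ± 1.16, adjusted p = 0.0109) and 124.1, 52.2 and 71.4 CPM at day 13 (4.51 ± 1.14, adjusted p = 0.0411), against 1.82, 2.65 and 6.18 CPM untreated. WT tumours held 201.2, 57.8 and 26.7 CPM (4.75 ± 1.19, adjusted p = 0.00302). No treated or tumour library of WT mice overlapped with the untreated ones. The day 7 call was lost without WT untreated replicate 1 (4.68), and the day 13 call without WT day 13 replicate 1 or 3 or any 1 of the untreated WT libraries (4.11 to 5.17).

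At day 7 the KO libraries lay below the WT libraries in Dhrs9, with a log2 difference of -1.88 ± 0.99 that did not pass (adjusted p = 0.235). Without the 3 libraries that stand apart (KO untreated replicate 3, KO day 13 replicate 1 and WT day 13 replicate 3), which share the estimate of spread, it was -1.84 ± 0.48 and passed (adjusted p = 0.0455). In untreated colon the difference was 2.60 ± 1.07 with all libraries (adjusted p = 0.754) and -1.26 ± 0.62 without KO untreated replicate 3. The KO and WT changes in tumours differed by -3.78 ± 1.496 with all libraries (adjusted p = 0.472) and by 0.10 ± 1.07 without that library. At day 13 Dhrs9 was at 10.6, 17.0 and 11.1 CPM in KO, all below the 52.2 to 124.1 CPM of WT, a difference of -2.67 ± 1.03.

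Dhrs3 (ENSMUSG00000066026, chr4:144892827-144928209, plus strand) encodes the enzyme that reduces retinal back to retinol, and its transcription is known to be induced by retinoic acid. Its levels ran from 17.8 to 66.2 CPM over all libraries, a highest value 3.72 times the lowest and the smallest such ratio of the 9 genes. The means were 27.0 ± 5.52 CPM in KO and 39.2 ± 14.5 CPM in WT at day 7, 40.5 ± 10.4 CPM in KO and 40.4 ± 22.4 CPM in WT at day 13, 28.0 ± 7.13 CPM in KO and 26.7 ± 10.9 CPM in WT tumours, and 30.8 ± 8.43 CPM in KO and 27.3 ± 9.95 CPM in WT untreated (SD, n = 3 each). In each comparison the groups overlapped, and no change of Dhrs3 passed.

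**Figure D3:**
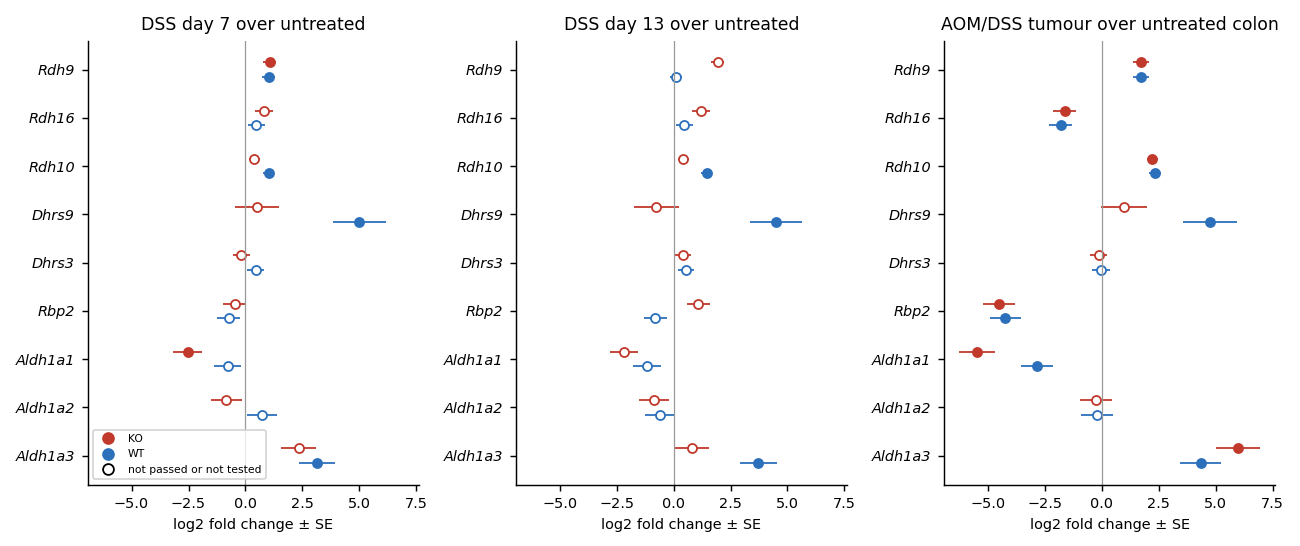
Log2 fold change (points) ± SE (lines) of each retinoid gene from untreated colon to day 7, day 13 and tumours, in KO (red) and WT (blue), with filled points for changes that passed and hollow points for those that did not or, for Rdh9 at day 13, were not tested. In tumours Rdh9, Rdh10 and Aldh1a3 lie to the right and Rdh16, Rbp2 and Aldh1a1 to the left in both genotypes.

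Levels of different genes can be compared only per length, for which the deposited TPM were used. Of the summed TPM of Rdh9, Rdh16, Rdh10 and Dhrs9, Rdh16 made up 10.7% ± 8.36 in KO tumours and 9.77% ± 3.75 in WT tumours, against 53.5% ± 22.1 in KO and 62.1% ± 10.4 in WT untreated colon (SD, n = 3 each). Rdh10 made up 40.3% ± 4.77 in KO and 33.0% ± 4.99 in WT tumours, against 15.7% ± 3.14 in KO and 12.3% ± 1.52 in WT untreated colon. The sum itself was 177.6 ± 25.3 TPM in KO and 217.1 ± 23.9 TPM in WT tumours, against 76.9 ± 16.03 TPM in KO and 103.7 ± 14.55 TPM in WT untreated colon. The sums of tumours did not overlap with those of untreated colon of the same genotype. In DSS-treated colon the sum was 136.9 ± 11.6 TPM in KO and 207.2 ± 36.6 TPM in WT at day 7. At day 13 it was 175.7 ± 8.77 TPM in KO and 177.7 ± 33.6 TPM in WT. A higher sum than in untreated colon was thus not particular to tumours. Rdh16 kept 55.0% ± 2.77 of it in KO and 49.96% ± 8.83 in WT at day 13.

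Aldh1a1 (ENSMUSG00000053279, chr19:20492715-20643465, plus strand) encodes a cytosolic retinal dehydrogenase and was the main Aldh1a gene of untreated colon. Tumours held 4.12, 6.22 and 3.35 CPM in KO, against 50.8, 80.8 and 475.5 CPM in untreated KO colon. WT tumours held 15.2, 4.58 and 2.12 CPM, against 40.8, 49.2 and 66.8 CPM in untreated WT colon. Tumours of both genotypes lay wholly below untreated colon. The fall was 5.47 ± 0.79 on the log2 scale in KO (adjusted p = 2.73e-05) and 2.85 ± 0.71 in WT (adjusted p = 0.00275). Without KO untreated replicate 3, which holds the value of 475.5 CPM, the KO difference was -3.85 ± 0.56 (adjusted p = 4.3e-05). Between untreated KO and WT colon the difference was 1.92 ± 0.61 with that library (adjusted p = 0.611) and 0.32 ± 0.34 without it.

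After DSS, Aldh1a1 held 40.7, 29.8 and 33.1 CPM in KO at day 7 and 47.3, 24.9 and 22.2 CPM in WT. The KO change passed at -2.54 ± 0.63 (adjusted p = 0.0160) but was -0.93 ± 0.34 without KO untreated replicate 3 and did not pass (adjusted p = 0.105). It was also lost without KO day 7 replicate 2 (-2.44) or KO day 7 replicate 3 (-2.51). The WT change was -0.79 ± 0.60 (adjusted p = 0.382). At day 13 the KO libraries, at 40.7, 50.2 and 42.1 CPM, lay above the WT libraries, at 14.2, 29.5 and 27.3 CPM, a difference of 0.91 ± 0.60. Aldh1a7, a close relative with 91.6% of its coding bases identical, shares 3.06% of the 50-base stretches of Aldh1a1.

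Aldh1a3 (ENSMUSG00000015134, chr7:66390890-66427517, minus strand), the third retinal dehydrogenase gene, moved against Aldh1a1. Tumours held 51.8, 231 and 481.7 CPM in KO and 84.6, 251.1 and 158.4 CPM in WT. Untreated colon held 3.76, 5.61 and 2.68 CPM in KO and 9.19, 11.2 and 3.69 CPM in WT. Without overlap, the rise was 5.98 ± 0.97 in KO (adjusted p = 7.99e-05) and 4.35 ± 0.90 in WT (adjusted p = 0.000634). The KO and WT changes differed by 1.63 ± 1.14, which did not pass (adjusted p = 0.698).

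In DSS-treated colon the rise of Aldh1a3 passed in WT and not in KO, but the 2 changes at day 7 were not told apart. They differed by -0.79 ± 1.05 (adjusted p = 0.771). Between KO and WT colon at day 7 the libraries overlapped, and the difference of -1.81 ± 0.74 did not pass (adjusted p = 0.136). KO colon held 8.08, 25.1 and 28.0 CPM at day 7 (2.34 ± 0.78, adjusted p = 0.0610) and 6.79, 8.54 and 5.40 CPM at day 13 (0.79 ± 0.77, adjusted p = 0.879). The KO libraries at day 7 were above the untreated KO libraries without passing, and at day 13 they overlapped with them. WT colon held 26.7, 165.1 and 29.9 CPM at day 7 (3.13 ± 0.78, adjusted p = 0.0155) and 84.8, 32.9 and 205.2 CPM at day 13 (3.72 ± 0.80, adjusted p = 0.0220), all above the untreated WT libraries. The WT call at day 7 was lost without WT day 7 replicate 2 (1.77) or WT untreated replicate 1 or 3 (3.23 and 2.79). The call at day 13 was lost without WT day 13 replicate 3, the library with squamous transcripts (2.83), without WT day 13 replicate 1 (3.88), and without any 1 of the untreated WT libraries (3.38 to 4.04). At day 13 the KO libraries were all lower than the WT libraries, a difference of -3.95 ± 0.81.

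The sums of neutrophil, macrophage and dendritic cell, and fibroblast genes were higher in WT than in KO colon at day 7 and day 13, without overlap. Single genes of these lists did overlap, such as Cxcr2 and Cd209a at day 7 and Lum at day 13. Summed over 4 neutrophil genes, KO colon held 1.02 to 2.65 CPM at day 7 and 0.548 to 9.84 CPM at day 13, and WT colon held 14.4 to 144.7 CPM at day 7 and 33.7 to 301.5 CPM at day 13. Tumours held 104.1 to 193.3 CPM in KO and 165.6 to 258.8 CPM in WT, and untreated colon held at most 1.01 CPM in KO and 0.756 CPM in WT. Macrophage and dendritic cell genes summed at day 13 to 22.3 to 45.2 CPM in KO and 68.7 to 153.8 CPM in WT, and the fibroblast genes to 365.8 to 648.3 CPM in KO and 947.4 to 2507 CPM in WT. The part of these cells in the levels of Aldh1a3, Dhrs9 and Rdh10 was not tested.

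Aldh1a2 (ENSMUSG00000013584, chr9:71215789-71296243, plus strand), the retinal dehydrogenase gene known from stromal and dendritic cells of the gut, was the lowest of the 9 genes. It ran from 0.273 to 3.72 CPM, with counts of 7 to 90 per library. At day 7 KO colon held 1.25, 1.66 and 0.387 CPM, below the 3.72, 3.01 and 3.29 CPM of WT colon, and the difference of -1.56 ± 0.68 did not pass (adjusted p = 0.156). No tested comparison of Aldh1a2 passed, and its low counts limit what could be detected. At day 7 the sum of 6 fibroblast genes was 550 to 868 CPM in KO and 908 to 2792 CPM in WT, and that of 7 macrophage and dendritic cell genes was 39.6 to 59.2 CPM in KO and 91.8 to 143.6 CPM in WT, both without overlap. Their part in the level of Aldh1a2 was not tested.

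Per length, the Aldh1a family turned over between colon and tumours. Aldh1a3 made up 93.4% ± 6.05 of the summed TPM of the 3 genes in KO tumours and 90.3% ± 10 in WT tumours, against 3.19% ± 2.40 in KO and 10.2% ± 6.03 in WT untreated colon (SD, n = 3 each). At day 7 its share was 29.4% ± 13.2 in KO and 49.9% ± 27.1 in WT, and at day 13 it was 9.75% ± 1.34 in KO and 67.9% ± 22.0 in WT. Aldh1a1 made up most of the rest, with 95.5% ± 3.12 in KO and 87.1% ± 4.57 in WT untreated colon, and Aldh1a2 made up at most 6.59% in any library.

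**Figure D4:**
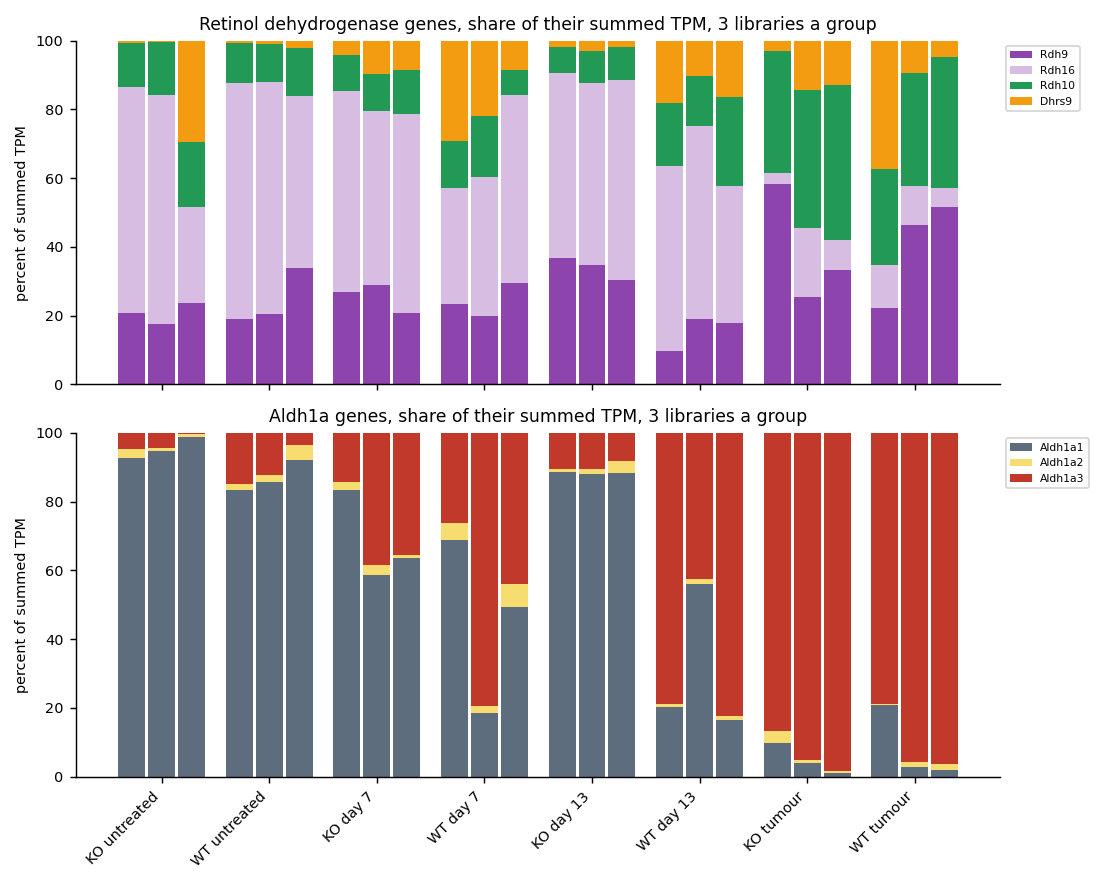
Share of each gene in the summed TPM of the 4 retinol dehydrogenase genes (top, percent) and of the 3 Aldh1a genes (bottom, percent), with 1 bar per library and 3 libraries per group, KO left of WT. Aldh1a1 fills most of each untreated bar and Aldh1a3 between 78.8% and 98.4% of each tumour bar, while Rdh16 shrinks to at most 19.9% in tumours.

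Rbp2 (ENSMUSG00000032454, chr9:98486115-98509781, plus strand) encodes the cellular protein that holds retinol and retinal in absorptive cells, best known from the small intestine. It was nearly lost in tumours, with 0.338, 2.36 and 0.876 CPM in KO, against 33.1, 30.5 and 17.2 CPM in untreated KO colon. WT tumours held 3.005, 1.75 and 0.531 CPM, against 35.2, 36.4 and 27.0 CPM in untreated WT colon. Every tumour lay below every colon library. The fall was 4.51 ± 0.72 on the log2 scale in KO (adjusted p = 6.47e-05) and 4.23 ± 0.70 in WT (adjusted p = 8.52e-05).

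Summed markers of normal colon were also lower in tumours. The sum of 8 colon epithelium genes was 3896 to 7071 CPM in KO and 5672 to 9503 CPM in WT tumours, against 11570 to 25200 CPM in KO and 11120 to 13870 CPM in WT untreated colon. The 25200 CPM is KO untreated replicate 3. Car1, Slc26a3 and Aqp8 were lower in every tumour than in every untreated library, but not every gene of the list was. In WT, Epcam held 1265 to 1774 CPM in tumours and 1479 to 1684 CPM untreated. Krt20 held 250.5 to 1028 CPM in WT tumours and 473.8 to 559.3 CPM in untreated WT colon. Smooth muscle genes, 5 in number, summed to 126.7 to 211.4 CPM in KO and 93.0 to 168.9 CPM in WT tumours, against 2826 to 3143 CPM in KO and 4526 to 6485 CPM in WT untreated colon. Their part in the tumour values was not tested.

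After DSS, Rbp2 held 19.1, 21.4 and 17.98 CPM in KO and 9.59, 6.97 and 44.6 CPM in WT at day 7. KO and WT overlapped through WT replicate 3, and the difference was -0.03 ± 0.50 (adjusted p = 0.972). Without that library it was 1.29 (adjusted p = 0.0255), with KO higher. At day 13 Rbp2 held 72.7, 52.8 and 44.4 CPM in KO and 13.6, 20.9 and 22.8 CPM in WT, so that the KO libraries lay above and the WT libraries below all untreated libraries of their genotype. Neither change passed, at 1.08 ± 0.50 in KO (adjusted p = 0.654) and -0.80 ± 0.50 in WT (adjusted p = 0.372).

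The stretch before the start of Rbp2, which was lower in each tumour than in each colon library, is shown for its core promoter matches and its half-site. It is 250 bases long on the plus strand at chr9:98490287-98490536 in GRCm38.p6, from RefSeq, inside the gene as annotated in GENCODE, which starts further upstream. Capitals mark the same motifs as above.
Rbp2: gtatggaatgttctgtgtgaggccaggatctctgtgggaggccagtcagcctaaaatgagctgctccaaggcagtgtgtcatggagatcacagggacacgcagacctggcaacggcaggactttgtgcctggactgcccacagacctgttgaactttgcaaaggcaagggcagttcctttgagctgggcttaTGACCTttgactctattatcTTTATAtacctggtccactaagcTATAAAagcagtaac
TATAAA lies on the plus strand at -15 and on the minus strand at -38, and AGGTCA lies on the minus strand at -58. The other motifs searched have no match in this stretch.

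Counted over the 9 genes, none passed between KO and WT in the comparisons that did not choose them. Between KO and WT, 0 of 9 passed in untreated colon (0.011% of all genes passed), 0 of 9 at day 7 (0.00552%) and 0 of 9 in tumours (0%). Over all genes 1182, 4887 and 654 had an unadjusted p under 0.05 in these comparisons, and DESeq2 called 0 of the 9 in each, where it called 65, 2453 and 22 genes in all. At day 13, the contrast that chose Rdh9, 3 members lay wholly higher in KO (Rdh9, Aldh1a1 and Rbp2) and 3 wholly lower (Rdh10, Dhrs9 and Aldh1a3). Over all genes the groups did not overlap for 23.8%, 11.5% higher and 12.3% lower, and 2.51% passed the test, 0.652% higher and 1.86% lower. Nothing is read from the members' count, since the contrast chose them. The median difference at day 13 was 0.01 over the 9 genes and -0.02 over all genes.

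From untreated colon to day 7, 2 of 9 passed in KO (12.6% of all genes, 8.57% higher and 4.07% lower), with Rdh9 higher and Aldh1a1 lower. In WT 4 of 9 passed (16.3%, 8.52% higher and 7.77% lower), with Rdh9, Rdh10, Dhrs9 and Aldh1a3 higher. With the Y-linked covariate 0 of 9 passed at day 7 in KO and 0 of 9 in WT. From untreated colon to day 13, 0 of the 8 genes tested passed in KO (0.0276%, 0.0221% higher and 0.00552% lower) and 3 of 8 passed in WT (4.24%, 3.21% higher and 1.03% lower), with Rdh10, Dhrs9 and Aldh1a3 higher. Without KO untreated replicate 2, KO day 7 replicate 3, WT day 7 replicate 2 and WT untreated replicate 2, whose sample numbers in the deposited names occur more than once, 0 passed at day 7 in KO, 0 at day 7 in WT and 0 at day 13 in WT. From untreated colon to tumours, 3 rose and 3 fell of 9 in KO (49.9% of all genes passed, 26.4% higher and 23.5% lower). In WT 4 rose and 3 fell of 9 (48.8%, 27.6% higher and 21.2% lower). Groups without overlap were common over all genes. From untreated colon they made up 34.7% in KO and 33.5% in WT at day 7, and 15.9% in KO and 28% in WT at day 13. In tumours they made up 59.1% in KO and 60.1% in WT. Between KO and WT at day 7 they made up 26.1%. The median change in tumours was -0.14 in KO and -0.03 in WT over the 9 genes, and 0.04 in KO and 0.09 in WT over all genes. No member passed a test of the difference between the KO and WT changes, at day 7 (0% of all genes) or in tumours (0%), and DESeq2 again called 0 of the 9, where it called 363 and 91 genes in all. Unadjusted p-values were under 0.05 for 2487 genes at day 7 and 1652 genes in tumours.

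The wider pathway was followed in 56 further genes of retinoid oxidation, binding, uptake, breakdown, receptors and targets. In tumours 7 rose and 14 fell of 48 tested in KO, and 9 rose and 15 fell in WT, which is 43.8% and 50% and near the background of all genes. Stra6, the membrane receptor that takes up retinol from its carrier in blood, held 324.2, 154 and 318.1 CPM in KO tumours, against 1.38, 1.98 and 0.1202 CPM in untreated KO colon (7.82 ± 1.32, adjusted p = 0.000106). In WT it held 15.2, 249.9 and 246.4 CPM in tumours, against 3.25, 1.70 and 1.87 CPM in untreated colon (6.23 ± 1.22, adjusted p = 0.000395). All tumours lay above all untreated libraries, and WT tumour replicate 1 was the lowest of them.

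A receptor gene and a target gene of retinoic acid also rose in tumours. Rarb, a retinoic acid receptor gene that is itself a target of retinoic acid, rose by 3.12 ± 0.73 in KO (adjusted p = 0.00167) and 1.71 ± 0.69 in WT (adjusted p = 0.0462). Tgm2, a transglutaminase gene induced by retinoic acid, rose by 1.43 ± 0.43 in KO (adjusted p = 0.0103) and 2.64 ± 0.45 in WT tumours (adjusted p = 0.000108), and in WT also at day 7 (1.65 ± 0.42, adjusted p = 0.0174).

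Of 15 other oxidoreductase genes tested, 3 rose and 5 fell in KO tumours, and 3 rose and 8 fell in WT tumours. The 3 that rose were Rdh1, Rdh16f1 and Rdh12, a retinol dehydrogenase gene known from the eye (1.80 ± 0.70 in KO and 2.14 ± 0.69 in WT). Rdh16f1 has no exon base outside Rdh9 and Rdh1, so its rise is not separate from theirs. Adh1, a cytosolic alcohol dehydrogenase gene that also acts on retinol, held 27.4, 114.9 and 25.3 CPM in KO tumours and 39.6, 16.1 and 18.2 CPM in WT tumours. Untreated colon held 1322, 1254 and 157.7 CPM in KO and 1251, 1128 and 1404 CPM in WT. The differences were -4.03 ± 0.73 in KO (adjusted p = 0.0002) and -5.68 ± 0.79 in WT (adjusted p = 1.6e-05), without overlap. Of the 2 breakdown genes tested, Cyp26b1 did not pass (1.73 ± 0.76 in KO and 1.62 ± 0.77 in WT). Cyp2s1, a cytochrome P450 gene that acts on retinoic acid, changed by -3.79 ± 0.66 in KO (adjusted p = 0.000153) and -4.14 ± 0.68 in WT (adjusted p = 7.47e-05). Aldh1a7, the relative of Aldh1a1, changed by -3.68 ± 0.73 in KO (adjusted p = 0.000467) and -3.96 ± 0.75 in WT (adjusted p = 0.0003). The receptor genes Ppard and Rxra changed by -1.49 ± 0.25 and -1.13 ± 0.19 in KO and by -1.10 ± 0.25 and -0.68 ± 0.19 in WT.

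In DSS-treated colon fewer of the 56 genes moved. At day 7, 0 rose and 4 fell of 47 tested in KO (8.51%), and 2 rose and 4 fell in WT (12.8%). Of all genes, 12.6% passed in KO and 16.3% in WT. The shares lay below those of all genes. In KO Rxra (-0.66 ± 0.17, adjusted p = 0.0216), the storage enzyme gene Dgat1 (-0.49 ± 0.14, adjusted p = 0.0329), Rarres2 (-1.08 ± 0.26, adjusted p = 0.0127) and the gut-homing receptor gene Ccr9 (-1.68 ± 0.41, adjusted p = 0.0155) fell. In WT Rdh1 (2.14 ± 0.67, adjusted p = 0.0425) and Tgm2 were the genes that rose. Those that fell were Ttr, which carries the retinol-binding protein in blood (-2.47 ± 0.67, adjusted p = 0.0223), Rbp7, a cellular retinol-binding protein gene (-1.52 ± 0.42, adjusted p = 0.0255), Rdh5, a retinol dehydrogenase gene known from the eye (-0.85 ± 0.23, adjusted p = 0.0205), and Cyp2s1 (-1.55 ± 0.25, adjusted p = 0.00189). No gene of the 56 passed at day 13 in either genotype, or between KO and WT in untreated colon, at day 7 or in tumours. Of the genes that break down retinoic acid, Cyp26a1 and Cyp26c1 were too low to be tested.

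The genes whose pattern over the 24 libraries was most like a member were found by Pearson's r of log2(CPM + 1), among 12821 genes with a mean of at least 2 CPM. These libraries share conditions and depth, so r describes likeness and nothing more. Rdh9 was most like Anapc10 (r = 0.79), Eif4g2 (0.75) and Scmh1 (0.74). Aldh1a1 was most like Ppara (0.97), Ahcyl2 (0.95) and Dgkq (0.95), and Rbp2 most like Sort1, Slc26a2 and Pttg1ip (each 0.97). Aldh1a3 was most like the neutrophil-attracting chemokine genes Cxcl5 and Cxcl2 (each 0.94) and Dpy19l1 (0.93). Aldh1a2 had weaker likenesses, with Ptgs1 (0.71), P2rx2 (0.69) and Armh4 (0.66).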

How the data were processed

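Per the labels' protocols, Trizol was used to take RNA from the tissues and Illumina's standard procedure to build libraries. The submitters' processing notes name STAR 2.7.6a, RSEM 1.3.1 and the mouse build GRCm38. Neither the annotation release nor strandedness is given in the sources used here, so a gene and an antisense partner cannot be separated. The authors deposited RSEM's expected counts and TPM for 55487 genes per library, per the file headers. An expected count shares a read among the genes it fits, which matters for Rdh9, Rdh16 and Aldh1a1.

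Symbols were matched for 55141 gene identifiers with a table of gene names, and positions are from GENCODE M21. The 9 genes, the wider list of 56, the marker lists and the rule for named genes (all members, and up to 4 genes that passed per list) were chosen with earlier results of these data known. Expected counts were rounded and tested with edgeR 4.0.16 in R 4.3.3 (quasi-likelihood F test, TMM, default filter with minimum count 10, robust), with Benjamini-Hochberg adjustment and a threshold of 0.05. Colon comparisons used 18 libraries (18102 genes), KO against WT tumours 6 libraries (17245 genes), and tumours against colon all 24 libraries (19056 genes). The test was checked on simulated counts that gave every gene the same spread and held no library that stood apart. That check does not cover the wider spread of the real groups. CPM use library totals scaled by TMM factors. Between-gene comparisons use the deposited TPM. Replicates were numbered by order only. Alternatives were DESeq2 1.42.0, RLE size factors, 2 other filters, other sets of libraries, a Y-linked covariate and each library left out. Of the wider-list genes that met the rule for named genes, not every one is reported here.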

Additional observations from a re-analysis of the deposited data

Results flagged for a closer look

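Rbp2 moved in opposite directions between untreated colon and day 13 in KO and WT, which marked it for a closer look. The log2 change was 1.08 in KO, with every day 13 library above every untreated library, and -0.80 in WT, with every day 13 library below every untreated library. The difference between these changes was not tested, because it rests on the day 13 contrast that chose the genes. Neither change passed on its own. Sex cannot be told apart from genotype at day 13, nor in KO from the change between untreated and day 13. Ddx3y exceeded 5 CPM in 3 untreated KO libraries and in 0 KO libraries at day 13.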

How the results depend on the processing

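No paired analysis was possible because the labels give no replicate numbers that tie libraries of different groups together. Of 916 values of single members under alternatives that left no single library out, 880 kept their direction and side of the threshold or passed in neither, 30 lost the call and 6 gained one. Of 690 values with 1 library left out, 656 kept them, 29 lost the call, 4 gained one and 1 turned round, which was Rbp2 between KO and WT at day 7 without WT day 7 replicate 3 (1.29, with a range of -0.44 to 1.29 over the libraries left out). The sign differed without passing in either case in 28 and 69 values. The number of members called in tumours was within 1.5 times the main count under all alternatives.

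At day 7 the counts of members called were less firm. With a Y-linked covariate the number fell to 0 in KO, against 2, and to 0 in WT, against 4. Without the 4 libraries with repeated sample numbers it was 0 in KO and 0 in WT, and with only the groups compared it was 1 in WT. In KO it was 1 without a filter, 1 with all libraries in the fit and 1 without the 3 libraries that stand apart, an alternative chosen after seeing the data. With single libraries left out it ranged from 0 to 2 in KO and from 1 to 4 in WT. At day 13 the WT count of 3 became 1 without a filter, 1 with only the groups compared and 0 without the 4 libraries, and ranged from 0 to 3 with single libraries left out, while DESeq2 called 1 in KO (Aldh1a1). Between KO and WT at day 7 the count of 0 was 1 without the 3 libraries (Dhrs9) and ranged from 0 to 2 with single libraries left out. The cause of these moves was not tested.

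Over all genes, DESeq2 called 65 between KO and WT in untreated colon (edgeR 2), 2453 at day 7 (edgeR 1) and 22 in tumours (edgeR 0), 121 from untreated to day 13 in KO (edgeR 5) and 1952 in WT (edgeR 767), and 363 and 91 for the difference between KO and WT changes at day 7 and in tumours (edgeR 0). Between KO and WT at day 7 the count was 850 with all libraries in the fit and 1193 without the 3 libraries. From untreated to day 7 it was 1109 in KO and 877 in WT with the Y-linked covariate, 949 and 1090 without the 4 libraries, 1510 and 931 with only the groups compared, and 1487 in KO without a filter (edgeR 2288 in KO and 2949 in WT). From untreated to day 13 in WT it was 508 without a filter, 427 with the covariate, 57 with only the groups compared and 18 without the 4 libraries.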

Other observations

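Genes of vitamin A handling differed in KO untreated replicate 3 in both directions. Isx, the homeobox gene that represses vitamin A uptake in response to retinoic acid, stood at 125.5 CPM there, against 0.202 and 0.112 CPM in the other untreated KO libraries and 0.158 to 10.4 CPM in the untreated WT libraries. Lrat, which esterifies retinol for storage, stood at 15.7 CPM, against 0.566 and 0.262 CPM in KO and 0.435 to 1.96 CPM in WT. Ttr was at 2.76 CPM there, against 31.7 and 37.0 CPM in the other untreated KO libraries. Bco1, which cleaves carotene, was also lowest there, at 1.48 CPM, against 6.31 and 6.10 CPM in the other untreated KO libraries and 3.82 to 5.57 CPM in WT, as was Rbp2, at 17.2 CPM. These genes were named after their values were seen.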
